A study of Mus musculus with 2 samples.

Results

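The AP-1 family is described here by 10 genes: the Fos genes Fos, Fosb, Fosl1 and Fosl2, the Jun genes Jun, Junb and Jund, and the related Atf3, Batf and Batf3. They were chosen by name, as the probes on the array whose RefSeq accession belongs to one of these genes. This gave 11 probes, 1 for each gene and 2 for Fosl2, among 55681 probes and 21368 named genes in all. Of the 10 members, 9 are called measured, since both arrays read a probe of theirs well above background. Fosl1 was above background on the array of the WRN-K577M heart alone.

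The study measured total RNA of mouse heart in 2 samples, each on its own 1-colour Agilent array. The control was labelled as a control of C57BL6 background. The other sample came from the line B6.Cg-Tg (CAG-WRN*K577M), strain code 5025Wcl/Mmmh, of the same background, called WRN-K577M here. In it the broadly active CAG promoter drives a form of WRN, a DNA helicase, that is altered in the helicase domain. The comparison addressed the signalling behind remodelling of the heart in this line. The titles of both samples end in the letters ND, which the labels do not explain, so a shared diet or treatment cannot be read from them. The labels give no age or sex, and leave unsaid whether hearts were pooled. With 1 array per group there is no replicate, so no p-value is given, and a difference between genotypes cannot be told apart from any other difference between the samples.

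AP-1 is a transcription factor made of 2 proteins joined through a leucine zipper, usually a Jun protein with a Fos protein or with another Jun. Its pairs bind a short DNA element, the TPA response element, and Atf3 and the Batf proteins pair with Jun proteins to bind the same or related elements. Fos, Fosb, Jun, Junb and Atf3 are immediate-early genes: stretch, hormones, ischaemia or the handling of tissue turn them on within minutes, through MAP kinases acting on factors already present. Jund and Fosl2 are less sharply induced. Batf and Batf3 are best known from T cells and dendritic cells.

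Promoter sequences are shown for the 3 members with the lowest ratios, for Jun, and for Fosl2, the sole measured member with a ratio above 0, because these members parted in the comparison below. RefSeq windows of the GRCm38.p6 assembly were matched by symbol for 9 of the 10 members, all but Fosl1. Each line gives the 250 bases before the transcript start, 5′ to 3′ on the gene's strand. Capitals mark TGACG or its complement CGTCA, the core of the cyclic AMP response element that ATF and CREB proteins bind, TGACNTCA, and TATAAA. The windows are chr12:85473640-85473889, plus strand for Fos, chr7:19310046-19310295, minus strand for Fosb, chr1:191183334-191183583, minus strand for Atf3, chr4:95052223-95052472, minus strand for Jun and chr5:32136222-32136471, plus strand for Fosl2.
Fos: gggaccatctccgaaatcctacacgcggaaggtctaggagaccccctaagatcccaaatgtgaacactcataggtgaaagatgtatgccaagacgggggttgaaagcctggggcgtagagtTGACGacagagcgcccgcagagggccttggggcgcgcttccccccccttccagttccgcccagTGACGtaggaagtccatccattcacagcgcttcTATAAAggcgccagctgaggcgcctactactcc
Fosb: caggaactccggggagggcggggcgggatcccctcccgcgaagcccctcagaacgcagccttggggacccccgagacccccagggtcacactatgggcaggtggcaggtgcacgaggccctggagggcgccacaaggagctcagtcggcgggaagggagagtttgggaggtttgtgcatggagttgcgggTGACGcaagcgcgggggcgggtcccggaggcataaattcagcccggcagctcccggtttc
Atf3: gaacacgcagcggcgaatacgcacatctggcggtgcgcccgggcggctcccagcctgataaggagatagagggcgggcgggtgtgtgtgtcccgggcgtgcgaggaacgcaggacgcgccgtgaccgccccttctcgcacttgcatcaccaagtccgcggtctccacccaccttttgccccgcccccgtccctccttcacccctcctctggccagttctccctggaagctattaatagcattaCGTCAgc
Jun: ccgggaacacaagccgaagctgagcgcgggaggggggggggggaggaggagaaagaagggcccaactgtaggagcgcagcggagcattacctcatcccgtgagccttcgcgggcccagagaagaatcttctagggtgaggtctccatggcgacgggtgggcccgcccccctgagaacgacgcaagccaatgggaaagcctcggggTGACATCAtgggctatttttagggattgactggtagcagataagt
Fosl2: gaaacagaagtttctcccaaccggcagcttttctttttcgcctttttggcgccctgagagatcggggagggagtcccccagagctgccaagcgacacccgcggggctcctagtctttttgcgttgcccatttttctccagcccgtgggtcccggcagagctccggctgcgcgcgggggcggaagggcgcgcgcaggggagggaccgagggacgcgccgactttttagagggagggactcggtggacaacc

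Both strands of each window were searched. TGACG was in the windows of 5 of the 9 members, Fos, Fosb, Junb, Atf3 and Batf, and in 17.8% of all 32851 windows of this length. The Fos window held it at 2 places, from 129 and from 66 bases before the start, and the Atf3 window held the complement 7 bases before the start. TGACNTCA was in 1 member, as TGACATCA from 45 bases before the start of Jun, and in 7.49% of all windows. TATAAA was in 1 member, Fos, from 33 bases before the start, and in 12.4% of all windows. The TPA response element TGACTCA and its complement TGAGTCA were in none of the 9 windows and in 4.46% of all, and the CArG box of serum response factor was in none and in 1.47% of all. The Fosl2 window held none of these letters. Sequence outside the windows was not searched, so a window without an element does not show that its gene lacks one. A match describes the sequence and not a bound site, and the arrays did not measure binding.

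Most of the family was lower in the WRN-K577M heart, and by very different amounts. Of the 9 measured members, 8 had a log2 ratio of WRN-K577M over control below 0, where 47.6% of all measured genes did. A total of 4 of the 9, Fosb, Fos, Atf3 and Batf3, were at least 2-fold lower, beside 3.46% of the 14003 measured genes. None of the 9 was at least 2-fold higher, beside 1.94% of the measured genes. The median log2 ratio was -0.96 over the 9 members and 0.020 over all measured genes, whose ratios had an SD of 0.52. After normexp, another background correction described with Fosb, 3 members were at least 2-fold lower, without Batf3, beside 1.41% of the measured genes. The members' median was then -0.45. With Fosl1 added at its bound the median over 10 was -0.71. The ratios ran from -3.40 for Fosb to 0.37 for Fosl2. In whole tissue, fewer cells of a type and less RNA per cell cannot be told apart. A level is the log2 of the background-subtracted signal minus its array's 75th percentile, and ratios were taken as WRN-K577M minus control.

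**Figure D1:**
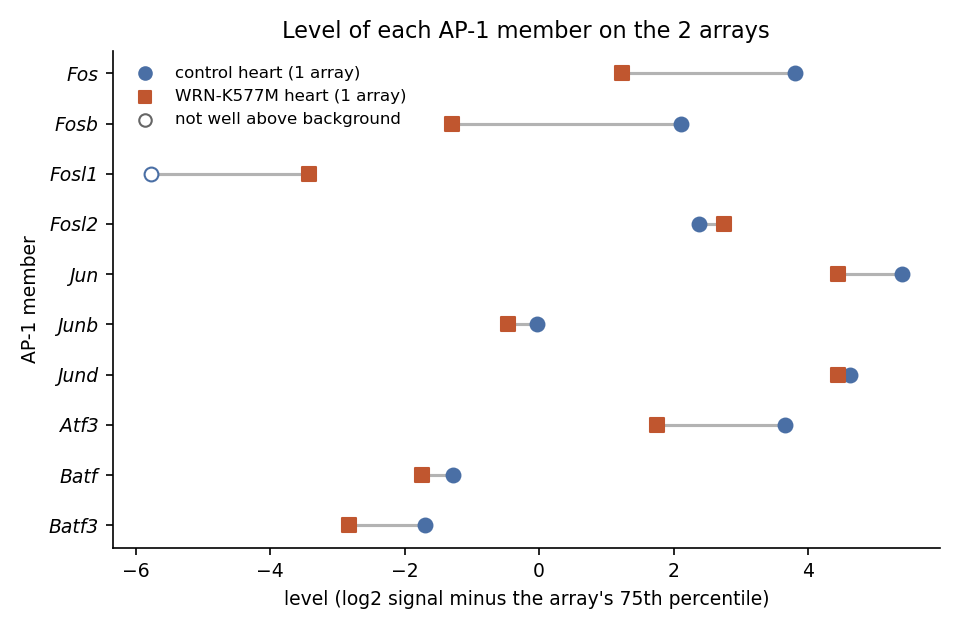
Level of each AP-1 member in the control heart (circles) and in the WRN-K577M heart (squares), as log2 signal relative to the array's 75th percentile, 1 array each; the open circle was not well above background. Fos (3.80 and 1.24), Fosb (2.11 and -1.29) and Atf3 (3.65 and 1.75) have the widest gaps to the lower side, while Jund (4.62 and 4.45) and Fosl2 (2.38 and 2.75) are close together.

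Measurement error within an array was smaller than the larger of these ratios. For 263 probes that were printed at 10 spots each and were well above background at every spot, spots of a probe scattered in log2 ratio by an SD of 0.11, and 2 such SDs amount to 1.17-fold. Over all 399 probes printed at 10 spots, dim ones included, that SD was 0.33 and the fold 1.57, which bears on Batf3, Fosl1 and, in the WRN-K577M heart, Fosb. The error that the Agilent software gives for each signal, carried over to the log2 ratio, was 0.20 to 0.23 among the 9 measured members. These errors cover measurement and not the difference between hearts.

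Fos encodes c-Fos, the prototype partner of Jun, and its probe was printed 10 times on each array. The processed signal of the 10 spots ran from 3461 over a median of 3562 to 3766 in the control, and from 470.4 over 496 to 518 with WRN-K577M. The spots of the arrays did not overlap: the lowest control spot was 6.68 times the highest WRN-K577M spot before scaling. On the scaled levels Fos stood at 3.80 in the control heart and 1.24 with WRN-K577M, a log2 ratio of -2.57 or 5.93-fold lower. The SD of the ratio between the 10 spots was 0.044, with a range of -2.64 to -2.51. Of the 14003 measured genes, 42 had a lower ratio than Fos.

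Fosb, a Fos protein also known from lasting neuronal activity, had the lowest ratio in the family. Its signal was 1107 in the control heart and 85.9 with WRN-K577M, with levels of 2.11 and -1.29. The log2 ratio of -3.40 makes it 10.6-fold lower, and 9 measured genes had a lower ratio. In the WRN-K577M heart this signal was 1.91 times the local background of 45.0, so the fold depends on how background is removed. After normexp correction, which models background and adds 50 to every signal, the log2 ratio was -2.74.

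The Fos-related antigens Fosl1 and Fosl2, which lack the strong activation domain of c-Fos, went the other way or barely differed. Fosl2 (Fra-2) was read by a bright probe with a signal of 1330 in the control heart and 1409 with WRN-K577M. Once scaled, its levels were 2.38 and 2.75 and its log2 ratio 0.37, 1.29-fold higher. This lies inside the 1.5-fold range that held most genes, and 2069 measured genes had a higher ratio. The other Fosl2 probe, with signals of 9.40 and 11.6, was not well above background on either array and has no ratio.

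Fosl1 (Fra-1), which other AP-1 pairs can induce, was near the limit of detection. Its signal was 4.67 in the control, not well above background, and 19.6 in the WRN-K577M heart, with levels of -5.78 and -3.42. Set against the lowest level of a probe well above background on the control array, -4.73, Fosl1 has a bound of 2.48-fold higher with the transgene. Its signal in the WRN-K577M heart was 0.489 of the local background of 40.0. With normexp correction the bound was 0.51 on the log2 scale, against 1.31 here. It therefore depends on how background is treated, the added 50 included, and is not a firm minimum. Of 21368 named genes, 209 were, like Fosl1, above background with WRN-K577M alone, and 740 in the control alone.

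**Figure D2:**
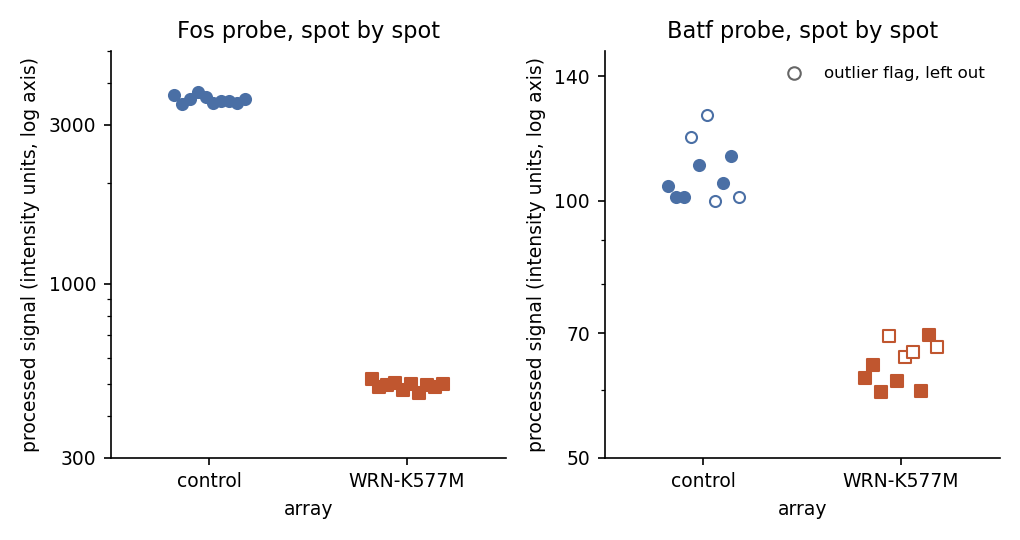
Processed signal on a log axis of each of the 10 spots of the Fos probe and of the Batf probe on the control array (circles) and the WRN-K577M array (squares), before scaling; open symbols are the 4 Batf spots left out as outliers on either array. Fos spots lie between 3461 and 3766 in the control and between 470.4 and 518 in the WRN-K577M heart, and Batf spots do not overlap between the arrays either.

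The Jun genes differed less than Fos and Fosb. Jun, which encodes c-Jun and can form AP-1 without a Fos protein, had a signal of 10823 in the control heart and 4546 with WRN-K577M. Its levels were 5.40 and 4.44 and its log2 ratio -0.96, 1.95-fold lower, just short of the 2-fold line. With scaling to the median, quantile normalization, cyclic loess or the deposited matrix its ratio passed 2-fold, and over the alternatives it lay between -1.05 and -0.94. A total of 521 measured genes had a lower ratio.

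Junb, a weaker activator that can oppose c-Jun, had signals of 251 and 153 and levels of -0.031 and -0.46. Its log2 ratio was -0.42, 1.34-fold lower, and 1937 measured genes had a lower one. Jund, the most constantly expressed Jun gene, had signals of 6309 and 4600 and levels of 4.62 and 4.45. Its ratio of -0.17, 1.12-fold lower, was smaller than the software error of 0.20. The ratio of Jun differed from that of Jund by -0.80, with a software error of 0.29.

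Atf3 encodes a stress-induced factor that pairs with Jun proteins and often represses. Its signal was 3217 in the control heart and 705 with WRN-K577M, with levels of 3.65 and 1.75. The log2 ratio of -1.90 makes it 3.74-fold lower, and 96 measured genes had a lower ratio. Its signal was 15.0 times the local background even on the WRN-K577M array, and its ratio lay between -1.95 and -1.90 under all 11 alternatives.

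Batf and Batf3, which lack an activation domain and pair with Jun proteins, were dim. The Batf probe was printed 10 times, of which 6 spots remained after outliers were left out. These ran from 101 over a median of 105 to 113 in the control heart and from 59.7 over 61.8 to 69.7 with WRN-K577M. The arrays did not overlap, and the log2 ratio was -0.46 with an SD of 0.067 between spots, 1.38-fold lower. With all 10 spots the ratio was -0.45, and after normexp it was -0.18.

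Batf3 had signals of 79.3 and 29.4, levels of -1.69 and -2.83, and a log2 ratio of -1.14, 2.21-fold lower. The WRN-K577M signal was 0.613 of the local background of 48.0. After normexp the Batf3 ratio was -0.45, and a filter that asks for a signal of at least 50 on both arrays removed the gene. Batf3 therefore counts among the members at least 2-fold lower at this setting and not after normexp. Of the markers of the dendritic cells known for Batf3, neither array read Xcr1 or Clec9a well above background. Flt3 had a ratio of -0.16 from dim levels of -3.53 and -3.69, and Zbtb46 one of -0.50. Another dendritic marker, Cd209a, was above background in the control alone, with a bound of 2.39-fold lower. Over the 7 dendritic markers with a probe, 3 of 4 measured had a ratio below 0. Their summed signal was 121 in the control heart and 127 with WRN-K577M, in multiples of the array's 75th percentile, and nearly all of it came from the probe of Siglech, with levels of 6.88 and 6.96 (ratio 0.081). Of the T and NK cell markers 3 of 4 measured had a ratio below 0 (median -0.17), 4 more were above background in the control alone, and the sums were 6.85 and 6.60. Irf4, which binds DNA together with Batf, was above background in the control alone, with a bound of 2.29-fold lower with the transgene. Irf8 had a ratio of -0.41. The part of these cells in the Batf and Batf3 ratios was not tested.

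In order of ratio the family ran Fosb, Fos, Atf3, Batf3, Jun, Batf, Junb, Jund and Fosl2. The steps from Fosb to Fos (0.83), from Fos to Atf3 (0.67) and from Atf3 to Batf3 (0.76) were more than 2 software errors wide. After normexp the ratios of Fosb and Fos were -2.74 and -2.46, so the width of the step between them depends on how background is treated, the added 50 included. The later steps were less than 2 software errors wide: Batf3 to Jun (0.18), Jun to Batf (0.50), Batf to Junb (0.041), Junb to Jund (0.26) and Jund to Fosl2 (0.54). By that error neighbours there are not separated, though it is wider than the spot SD of 0.11 for bright probes. The order there also changed with normexp: Jun (-0.94) lay below Batf3 (-0.45), and Jund (-0.33) below Junb (-0.28) and Batf (-0.18). The ratio of Fos differed from that of Fosl2 by -2.94, with a software error of 0.29, and from that of Jun by -1.60. At 3-fold the lower members were 3, Fosb, Fos and Atf3, beside 1.10% of the measured genes, and at 1.5-fold 5, beside 9.16%.

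**Figure D3:**
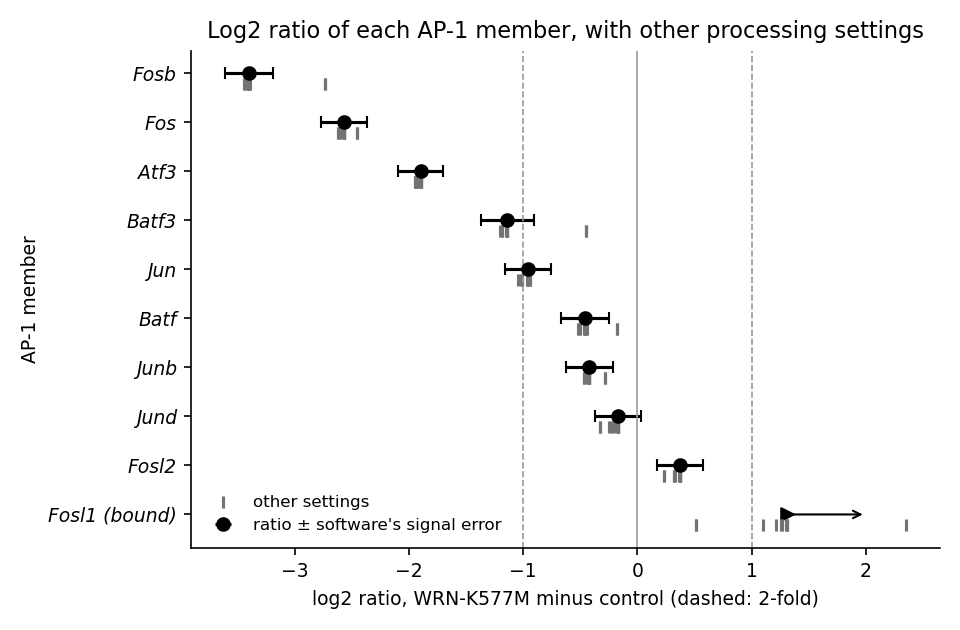
Log2 ratio of WRN-K577M over control for each AP-1 member (points, with the software's signal error as bars) and under the other processing settings (ticks below each point). Dashed lines mark 2-fold. The arrow marks the bound of 1.31 for Fosl1, which is not a firm minimum. Fosb, Fos and Atf3 stay beyond the 2-fold line at every setting, while Jun sits on the line and Batf3 crosses it.

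**Figure D4:**
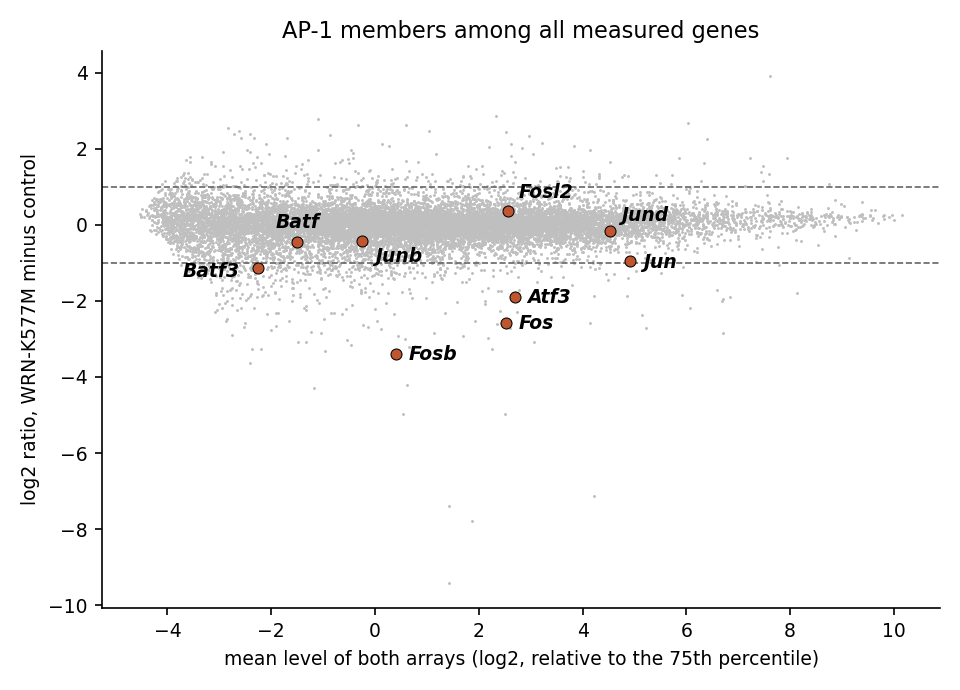
Log2 ratio against the mean level of both arrays for the 14003 measured genes (grey) and the 9 measured AP-1 members (orange); dashed lines mark 2-fold. Fosb, Fos and Atf3 (-3.40, -2.57 and -1.90) lie well below the bulk of the genes, and Jund and Fosl2 (-0.17 and 0.37) lie within it.

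The genes that lie next to members on the chromosome did not all share their ratios. Fos, Jdp2 and Batf follow each other on chromosome 12 with no other protein-coding gene between them. Jdp2, a repressor that pairs with Jun proteins, had levels of 1.18 and 0.98 and a ratio of -0.19, between a ratio of -2.57 for Fos and of -0.46 for Batf. Atf3 and Batf3 lie on chromosome 1 with 1 protein-coding gene between them, and their ratios were -1.90 and -1.14. The named genes with a ratio nearest to Fos over the 2 arrays were Aplnr, the apelin receptor (-2.57), Hbb-b1, a beta globin (-2.58), and Scnn1a, an epithelial sodium channel subunit (-2.54). Those nearest to Fosl2 were Hexa, Tlcd3b and Sp2, all with 0.37. Within the software error of each ratio lay 18 named genes for Fos and 3389 for Fosl2.

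Most other immediate-early genes read lower with WRN-K577M as well. Of 24 measured genes of that list, 17 had a ratio below 0, 9 were at least 2-fold lower and 1, Myc, at least 2-fold higher (1.23). Over all measured genes these shares were 47.6%, 3.46% and 1.94%. The list's median was -0.81. After the normexp background correction, 3 of the 24 were at least 2-fold lower and 0 as much higher, beside 1.41% and 0.821% of all measured genes. The same shares over all genes belong beside the counts of the lists below. Nr4a1, an orphan nuclear receptor, had levels of 6.84 and 4.99 (-1.85), Nr4a2 a ratio of -1.46, and Egr1, a zinc finger factor induced together with Fos, levels of 5.21 and 3.77 (-1.44). Nr4a3 was above background in the control alone, with a bound of 2.89-fold lower. Arc (-0.0021), Klf6 (0.074) and Rhob (0.13) were near equal.

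The kinases and factors that switch the family on differed little in their RNA. All 27 kinases of the MAP kinase list were measured, with a median of -0.086. A total of 1 was at least 2-fold lower and 1 at least 2-fold higher, near the shares of 3.46% and 1.94% over all measured genes. The lower one was Map2k6 (-1.36), which activates p38, and the higher one Map2k7 (1.63), which activates the Jun kinases. Map2k7 was dim in the control and did not reach 2-fold after normexp. The Jun kinases Mapk8 (0.16), Mapk9 (-0.10) and Mapk10 (-0.24) and the ERK kinase Mapk3 (-0.088) were near equal. None of the 11 upstream factors reached 2-fold in either direction: Srf, which binds the CArG box, had a ratio of -0.27, Elk1 of 0.26, Creb1 of 0.18, Stat3 of 0.81 and Mrtfa of -0.46. The Elk1 probe read at levels of 9.41 and 9.66, near those of the cardiomyocyte marker Myh6 (9.52 and 9.70). Whether that probe reads Elk1 RNA alone was not tested. RNA does not report kinase activity.

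Of the 9 MAP kinase phosphatases, which shut this signalling off, 2 were at least 2-fold lower and 1 at least 2-fold higher. Dusp1, itself an early gene, had levels of 4.08 and 2.71 (-1.37), Dusp2 a ratio of -1.29 and Dusp4 one of 1.93, from a level of -3.90 in the control. The normexp correction left 1 at least 2-fold lower and 0 as much higher. Among 11 measured genes that modify or partner Jun and Fos proteins none reached 2-fold. Fbxw7, which marks Jun for degradation, had a ratio of -0.62, and Nfatc2, which binds DNA together with AP-1, one of 0.98.

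**Figure D5:**
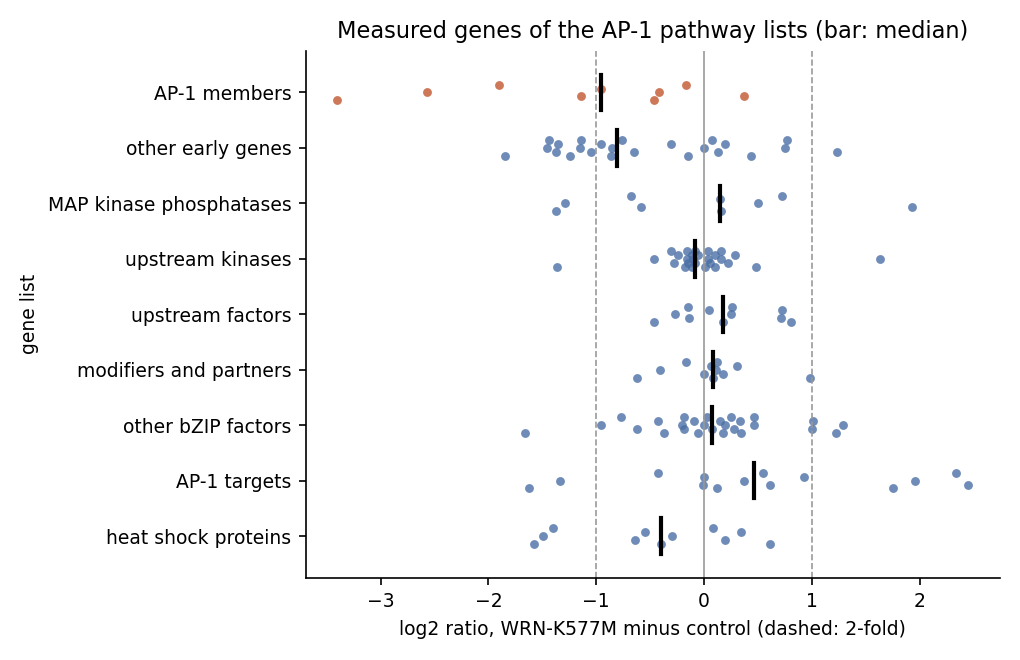
Log2 ratio of WRN-K577M over control for the measured genes of the AP-1 family (orange) and of 8 related lists (blue); bars are medians and dashed lines mark 2-fold. The AP-1 members (median -0.96) and the other early genes (-0.81) lie mostly below 0, the kinases (-0.086) centre on it, and the AP-1 targets (0.46) spread to both sides.

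The wider bZIP class, to which AP-1 belongs, was not lower as a whole. Of 27 measured genes, 12 lay below 0, and the list's median was 0.077. The 1 gene at least 2-fold lower was Nfil3 (-1.66), and the 4 at least 2-fold higher were Dbp (1.29), Bach2 (1.22), Mafk (1.01) and Maff (1.00). With normexp 1 gene of the class was at least 2-fold higher, and with cyclic loess 2 were. Mafk and Maff are small Maf proteins, and Bach2 pairs with them. The ATF genes Atf2 (0.28), Atf4 (0.077) and Atf6 (-0.056) were near equal, unlike Atf3. Batf2 had levels of -0.94 and -0.91, and Ddit3, a partner of Atf3 under stress, a ratio of -0.96.

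Textbook targets of AP-1 lay on both sides of 0. Of 14 measured, 5 had a ratio below 0, 2 were at least 2-fold lower and 4 at least 2-fold higher, with a median of 0.46. The higher ones included Hmox1, heme oxygenase (2.45), Hbegf, an EGF-like growth factor (2.34, levels of 1.80 and 4.14), and Mt2, a metallothionein (1.75). The lower ones were the cytokine Il6 (-1.62) and the adhesion molecule Icam1 (-1.34), and 0 were as much lower after normexp. Timp1 (0.93), Ccnd1 (-0.43) and Mmp3 (0.55) lay between. These genes also answer to other factors. Mmp9, Plau, Spp1 and Tnf were above background in the control alone with bounds under 2-fold, and neither array read Mmp10 or Mmp13 well above background.

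Markers of several other cell types differed between the samples too. All 10 cardiomyocyte markers were measured, with ratios of 0.00074 to 0.25, so both samples read as heart. All 10 macrophage markers had a ratio below 0 (median -0.86, summed signal 42.1 in the control heart and 25.2 with WRN-K577M), and so did 9 of 10 fibroblast markers (median -1.40, sums 333 and 234). The fibroblast markers were not lower alike. Of them, 7 were at least 2-fold lower, with Col3a1 (-2.29), Pi16 (-1.86) and Col1a1 (-1.73) the lowest. Dcn (-0.059), Pdgfra (-0.18) and Tcf21 (0.25) were near equal. In the lung epithelium list, Sftpc, Sftpb, Sftpd, Sftpa1 and Ager were above background in the control alone, and the sums over 8 genes were 131 and 0.504. All 7 measured atrial markers were at least 2-fold lower, with Sln (-9.41), Myl7 (-7.39), Myl4 (-7.12) and Dkk3 (-2.93) the lowest. Fgf12 was above background in the control alone, with a bound of 14.6-fold lower. The atrial sums were 657 and 157, and with WRN-K577M nearly all of the sum came from Nppa (levels of 8.32 and 7.26, ratio -1.06). All 4 measured erythroid genes were lower too (sums 820.2 and 192). Of 5 measured adipocyte markers, 4 were at least 2-fold lower (median -3.16), with Adipoq, the hormone adiponectin, at -3.31 and Fabp4 at 0.53. That list's sums were 161 and 196, most of them from Fabp4. The neutrophil genes S100a8 and S100a9 both had a ratio of -4.98. Retnlg, not well above background with WRN-K577M, had a bound of -4.91 on the log2 scale. Over the 5 measured neutrophil markers the median was -0.41, and the sums were 228 and 217, led by Csf3r (0.21). Of the B cell markers, 1 was measured, Cd79b (-0.86), and the control array alone read 2 others above background. Smooth muscle and pericyte markers had a median of 0.23 over 7, with 1 at least 2-fold lower. Endothelial markers had a median of -0.12 with none at 2-fold.

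Heat shock genes, of which some but not all are induced by stress, had a median of -0.40 over 11, with 7 below 0. Hsph1 (-1.58), Hspa1a (-1.49) and Dnaja1 (-1.40) were at least 2-fold lower and none as much higher. The highest ratios were those of Bag3 (0.61) and Hspb1 (0.34). The list's summed signal was 943 in the control heart and 973 with WRN-K577M, led by Hspb1 (levels of 8.15 and 8.50) and Hspa8 (7.78 and 7.87). The part of cell make-up and of tissue handling in the ratios of Fos, Fosb and Atf3 was not tested.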

How the data were processed

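Spot files of 2 arrays, 1 per group, were used. The scanner software, Agilent Feature Extraction 11.5.1.1 in the submitters' processing notes, gave the intensity values. Per the file headers, the processed signal is an intensity with background subtracted and trends over the array removed, with no scaling between arrays; flag columns give outliers, saturation and signal well above background. The deposited series matrix holds the same intensity times a factor of 4.12 (control) or 4.86 (WRN-K577M). The sum of signals over a list is a sum over each gene's brightest probe.

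Control spots and 257 outlier spots were dropped before averaging over the spots of a probe. The arrays' 75th percentiles were 256 and 209.7, the mean local background 42.3 and 44.1, and 55.2% and 52.9% of probes were well above background; no spot was saturated. Probes were named through RefSeq accessions of GRCm38.p6 (50.9% named); the array is annotated on mm9, per the file headers. A gene took its brightest probe well above background on both arrays. A gene above background on 1 array has a bound against the lowest level of a probe well above background on the other, or its own level there if higher. Probes not well above background can lie above that lowest level, so a bound is not a firm minimum.

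The number of arrays, 1 per genotype, allows no test and limits the precision. Genes are counted at 2-fold. The members and lists were chosen with earlier results of these data known. Named are all members, up to 4 genes with the largest ratio per list, genes with bounds of at least 2-fold, genes nearest to Fos and Fosl2 in ratio, and genes with a known role. Some genes of the lists are not reported here by name. Alternatives were normexp (offset 50), quantile and cyclic loess normalization, other scalings, the deposited matrix, other filters on dim probes (none, or a signal of at least 50), the mean of probes, outlier spots kept, and 1.5-fold and 3-fold. Counting was tested on data simulated from the control signals, with the spot SD of 0.11 of bright probes and the control's background flags. The larger error of dim probes was not simulated, so that test does not cover genes near background. Python 3.11.15, numpy 2.4.6, pandas 2.3.3, matplotlib 3.10.9, R 4.3.3 and limma 3.58.1 were used.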

Additional observations from a re-analysis of the deposited data

How the results depend on the processing

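The members at least 2-fold lower numbered between 3 and 5 at every setting, with Jun and Batf3 as the genes that crossed the line. The number at least 2-fold higher was 0 except with no filter on dim probes, where Fosl1 made it 1. The median over measured members was -0.45 after normexp, -0.71 with no filter, -0.71 with a signal of at least 50, and -0.39 with normexp and no filter together, a setting chosen after seeing the data. In all other settings it lay between -1.05 and -0.96. Fos, Fosb, Atf3, Jun, Junb, Jund and Batf kept a ratio below 0 under all 11 alternatives, Batf3 under all 10 that measured it, and Fosl2 one above 0. Without the filter the median of all genes moved from 0.020 to 0.12, and to 0.16 with normexp as well. Of 777 values of the other lists, 691 stayed the same and 86 moved. A change of sign was looked for only in list medians of at least 2-fold, and none of those changed sign. Smaller medians could change sign and count as moved, as the dendritic median did after normexp (-0.28 to 0.0015). No paired analysis was possible because each group holds 1 sample. Signal over background limits Batf3, Fosl1 and, in the WRN-K577M heart, Fosb.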
